A study of Mus musculus with 3 samples.

Results

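Thymocytes with more than 5000 detected genes were examined in the third run of a series of 3 runs of 10x single-cell RNA sequencing. A gene was detected in a cell when at least 1 unique molecular identifier (UMI, a tag that marks 1 captured RNA molecule) had been counted on it. The cells were chosen by this measured number, together with at most 7% of UMIs on mitochondrial genes. They were 552 of the 8869 cells of the third run, or 6.22% (5.73% to 6.75%), and of 23283 cells in all runs. The filter stated for the study, which keeps cells of 500 to 5000 genes with at most 7% mitochondrial UMIs, removed all 552 when applied here to the deposited counts and left 7511 cells of this run for comparison. The study lists more cells as kept in this run than this filter leaves, so that it is not known which of the 552 were left out of its own analysis.

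All runs used C57BL/6 mice with no treatment, 6 weeks of age by the sample labels and 6 to 8 weeks by the protocol, and each run was a single library of 4 pooled thymi. Cells positive for CD4, CD8, B220, CD11b, CD11c, NK1.1 or TCRβ were gated out in sorting. The third run held DN1 and DN2 cells, DN3 cells and TCRγδ+ cells, sorted apart and mixed afterwards, the first held total DN and TCRγδ+ cells, and the second held DN1 and DN2 cells. The third run had 98533329 UMIs with a median of 8343 per cell, the first 39947415 with a median of 5982 and the second 52797915 with a median of 4830. The sorted stages cannot be told apart by label within the mixed library. The first and second runs shared 72 cell barcodes and the first and the third run shared 3, while the second and the third run shared none. Since a run was 1 library, cells were not treated as replicates and no test was made. Intervals in parentheses are exact 95% intervals, Poisson for levels and Clopper-Pearson for shares, and cover counting error only.

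Double negative (DN) thymocytes lack CD4 and CD8 and pass from DN1 to DN4. Il2ra, the CD25 chain of the interleukin-2 receptor, marks DN2 and DN3 cells, and DN3 cells rearrange the Tcrb locus with the RAG recombinase. Cells that make a working β chain, which pairs with the pre-TCRα chain encoded by Ptcra, pass β-selection and divide rapidly. A dividing cell copies its DNA in S phase, grows, and separates the copies in mitosis at the end of G2/M, so that its RNA content rises toward division. A droplet that captures a pair of cells, called a doublet, also gives a barcode with many UMIs and genes. For this reason, the transcripts of exclusive cell types were counted in the same barcodes: Il2ra, Trac, the constant segment of the TCRα chain, which is rearranged after the DN stages, and Cd79a, a signaling chain of the B cell receptor.

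The 552 cells had 5001 to 7538 detected genes, with a median of 5373, and 20906 to 76633 UMIs, with a median of 32188.5. The 7511 cells of 500 to 5000 genes had a median of 2768 genes and 8507 UMIs. Of these, 5 cells reached the median UMI count of the cells above 5000 genes. The mitochondrial share of the cells above the limit had a median of 2.40% and a highest value of 4.4%, compared with a median of 3.10% below it, so that the mitochondrial limit removed none of them. On the same scale, the median cell above the limit held 4.55 times the UMIs of the median G1 cell below it, and the lowest held 2.96 times. The median was 2.84 times that of the median G2/M cell and 2.12 times that of the median S cell below the limit, and 326 of the 552 cells held at least 2 times the UMIs of that S cell. UMIs and genes formed 1 continuous band across the limit, as seen in the plot of genes against UMIs.

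**Figure D1:**
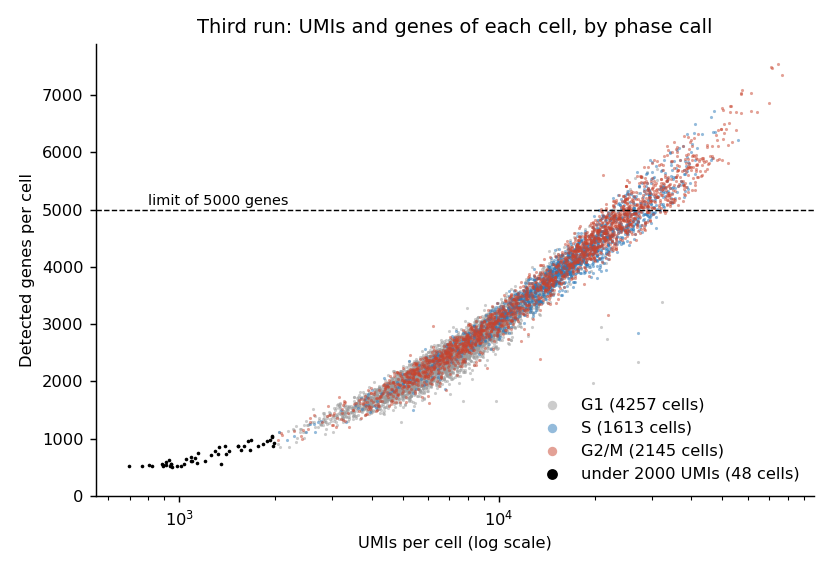
UMIs per cell (x axis, log scale) and detected genes per cell (y axis) of the third run, with 1 point per cell colored by the phase called at 2000 UMIs. The 552 cells above the dashed limit of 5000 genes lie at the upper end of the band, between 20906 and 76633 UMIs, and most are colored as S or G2/M.

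The cells above 5000 genes were almost all called cycling. To compare cells of unequal depth, each was thinned at random to 2000 UMIs, and a phase was called from the S and G2/M gene lists. Of the 552 cells, 361 were in G2/M, or 65.4% (61.3% to 69.4%), 176 in S, or 31.9% (28.0% to 36.0%), and 15 in G1, or 2.72% (1.53% to 4.44%). S and G2/M together were 97.3% (95.6% to 98.5%), compared with 43.2% (42.0% to 44.3%) of the 7463 cells of 500 to 5000 genes that had 2000 UMIs, and 91.7% (90.1% to 93.1%) of the 1351 cells of 4000 to 5000 genes. Without thinning, S and G2/M cells were 97.5% of the cells above the limit and 42.2% of those below it. A second random thinning to 2000 UMIs gave 97.1% above and 51.9% below the limit, so that the share below it depended on the draw. Above the limit, the split between S and G2/M moved with depth. G2/M was 59.4% and S 38.0% at 5000 UMIs, and 57.6% (53.4% to 61.8%) and 39.9% without thinning. Of the cells called G2/M below the limit, 38.2% held at least 2 UMIs of Mki67 and Top2a together at 2000 UMIs, compared with 78.4% of those above it.

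Mki67, which encodes the Ki-67 antigen of proliferating cells (chr7:135689784-135716361 on GRCm38), and Top2a, the topoisomerase that untangles chromosomes (chr11:98992943-99024189), were the markers named for these cells, and both were high. Levels are CPM, the UMIs of a gene summed over the cells of a population and scaled to a total of 1000000, so that they compare a gene between populations and not genes with each other. Mki67 was at 623 CPM (612 to 634) above the limit, 555 (546 to 563) in cells of 4000 to 5000 genes and 249 (246 to 253) in all cells of 500 to 5000 genes. Top2a was at 863, 835 and 388 CPM in the same order. By single cells, the CPM of Mki67 above the limit ran from 0 to 3850 with a median of 533, and the median below the limit was 0. At all UMIs, 518 of the 552 cells had Mki67 and 542 had Top2a. At 2000 UMIs, Mki67 was found in 61.8% (57.6% to 65.9%) of the cells above the limit and in 15.3% (14.5% to 16.2%) of those below it. By a rule without phase scores, at least 2 UMIs of Mki67 and Top2a together at 2000 UMIs, 65.0% (60.9% to 69.0%) of the cells above the limit and 14.4% (13.6% to 15.2%) of those below were cycling.

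Below the limit, G1 cells were 76.0% of the cells of 1000 to 1499 genes and 82.3% of those of 1500 to 1999, and from there to the limit each bin of more genes held a smaller share of G1 cells. Cells of 2000 to 2499 genes were 3.86% S and 17.2% G2/M, with Mki67 at 22.7 CPM. Cells of 3500 to 3999 genes were 46.6% S and 25.4% G2/M, with Mki67 at 205 CPM. Above the limit, G2/M was 62.1% (56.7% to 67.2%) at 5001 to 5500 genes, 68.5% (60.3% to 75.9%) at 5501 to 6000 and 75.8% (63.6% to 85.5%) at 6001 to 7538, while S was 35.0%, 28.1% and 24.2%. Neighboring bins above the limit overlapped in their intervals. The shares on either side of the limit overlapped in their intervals. Of the 111 cells within 100 genes below it, 95.5% (89.8% to 98.5%) were in S or G2/M, with Mki67 at 591 CPM, and of the 86 cells within 100 genes above it, 97.7% (91.8% to 99.7%) were, with Mki67 at 623 CPM.

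**Figure D2:**
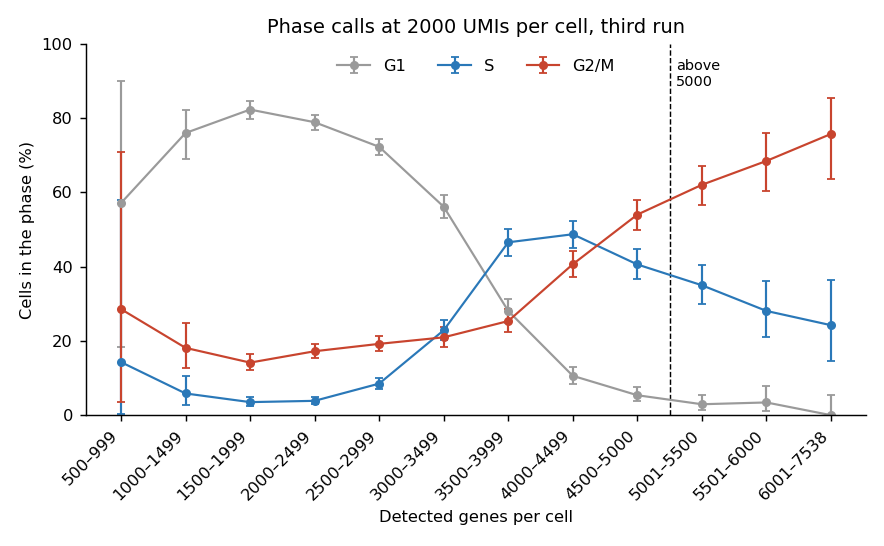
Share of cells called G1, S or G2/M at 2000 UMIs per cell (y axis, percent) by the number of detected genes (x axis) in the third run. Points are shares with exact 95% intervals, the first bin holds 7 cells, and above the dashed line at 5000 genes G2/M is 62.1%, 68.5% and 75.8%.

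The limit took a larger share of cycling cells than of others. It removed 537 of 3758 S or G2/M cells, or 14.3% (13.2% to 15.4%), 16.8% (15.3% to 18.5%) of G2/M cells and 0.352% (0.197% to 0.581%) of G1 cells, where all cells gave 6.89%. At 2000 UMIs, it removed 23.0% (20.9% to 25.2%) of the cells with Mki67 but 3.04% (2.06% to 4.32%) of those with Ptcra and 2.84% (1.98% to 3.95%) of those with Trac. By the rule of 2 UMIs, it removed 359 of 1435 cells, or 25% (22.8% to 27.3%). Cells with Il2ra were removed at 6.29%, close to the share of all cells. The second random thinning called 536 cells above the limit and 3871 below it cycling, instead of 537 and 3221. For G2/M the counts were 345 and 2137, instead of 361 and 1784. The removed shares of cycling and of G2/M cells thus depended on the draw, which their intervals do not cover.

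Genes of late division had the largest ratios among genes with a mean of at least 50 CPM, while hemoglobin genes of lower mean level, mostly from 1 cell, had larger ones. Genes with a mean CPM of at least 10 in the populations compared were counted as measured, and 53 of the 54 G2/M genes were. Of these, 38 were at least 2-fold higher above the limit than in all cells of 500 to 5000 genes and none was lower, with a median ratio of 2.31. Of all 7825 genes measured, 1.87% were at least 2-fold higher and 3.88% at least 2-fold lower, and the median ratio was 0.954. These shares are given for scale, since the cells were chosen by a measure of the same RNA. The largest ratio among genes with a mean of at least 50 CPM was that of Ccnb1, encoding cyclin B1, which drives entry into mitosis, with 143 CPM above the limit and 40.7 below it, or 3.52-fold (3.34 to 3.71). Next came Ube2c, the ubiquitin-conjugating enzyme of the anaphase-promoting complex, with 552 and 160 CPM, or 3.46-fold (3.37 to 3.55). They were followed by Plk1, a mitotic kinase, at 3.18-fold and, after the histone gene Hist1h2bj at 2.88-fold, by Cdc20, the activator of the same complex, at 2.83-fold. Hmmr, Cenpf, Aurkb, Aspm and Bub1b, which act at the spindle or the kinetochore, and Ccna2 and Cdk1, a cyclin and the kinase of mitotic entry, were between 2.63-fold and 2.83-fold. No cell gave more than 1.19% of the UMIs of any of these genes.

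Genes of DNA replication were higher to a lesser degree. All 43 S phase genes were measured, none was 2-fold higher, and 42 were above a ratio of 1, with a median of 1.46. Rrm2, a subunit of the reductase that makes deoxynucleotides, was at 152 CPM (147 to 158) above the limit, 166 (161 to 171) in cells of 4000 to 5000 genes and 77.6 in all cells of 500 to 5000. Replication-dependent histone genes, whose transcripts mostly lack a poly(A) tail and are captured poorly by this assay, were at least 2-fold higher for 31 of the 45 measured, with a median of 2.22, and took 11929 CPM in sum above the limit and 5759 below it. Their median was 1.09 against cells of 4000 to 5000 genes and 1.45 among S or G2/M cells, with none 2-fold higher in either.

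The medians of these lists were lower when cycling cells were compared with each other. In S or G2/M cells only, 7 of 7671 genes, or 0.0913%, were at least 2-fold higher above the limit and 0.561% at least 2-fold lower. The G2/M genes kept a median ratio of 1.49, with 51 of 53 above 1, and the S phase genes had a median of 0.989, with 21 of 43 above 1. The same lists called the phases, and G2/M was the larger share above the limit, so that the mix of phases moves with these medians. Within G2/M cells, the G2/M genes had a median of 1.25, with 50 of 54 above 1, and the S phase genes 1.10. Ube2c was 1.69-fold (1.65 to 1.74) higher in these cells and Mki67 1.30-fold (1.26 to 1.33). Against cells of 4000 to 5000 genes, the medians were 1.15 for G2/M genes, with 47 of 53 above 1, and 0.891 for S phase genes, with 38 of 43 below 1. In that comparison, 0.0393% of 7627 genes were at least 2-fold higher and 0.0262% lower. The 3 higher genes were the hemoglobin genes Hbb-bs, Hba-a1 and Hba-a2, and the 2 lower ones were Socs2, an inhibitor of cytokine signaling, and Elane, neutrophil elastase, all named after their values were seen. One cell gave over 96% of the UMIs of each hemoglobin gene, and 85.2% of the UMIs of Elane also came from 1 cell.

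The promoters of the G2/M and S phase genes differ in sequence, as known from cell cycle control. Many late cell cycle genes carry a cell cycle homology region (CHR, searched as TTTGAA) near CCAAT boxes bound by NF-Y (searched as CCAAT), whereas many replication genes carry E2F sites (searched as TTCCCGC). Both strands were searched in RefSeq promoters of GRCm38, from 250 bases before to 50 after each start, and a match is a description and not a bound site. Of the 54 G2/M genes 47 had promoters, and of the 43 S phase genes 31. TTTGAA was present in 34 of 52 G2/M promoters, or 65.4%, in 5 of 35 S phase promoters, or 14.3%, and in 17.9% of all 32851 promoters. TTCCCGC was in 1 of 52, or 1.92%, in 15 of 35, or 42.9%, and in 4.60% of all. CCAAT was in 39 of 52, 23 of 35, or 65.7%, and 37.4% of all. The stretches from 200 to 11 bases before the start are shown for both markers, for Ube2c and Cdc20 of the late genes that led the ratios, and for Rrm1, the S phase gene with TTCCCGC that had the highest level among those whose stretch had little overlap with annotated exons. Capitals mark every match to the searched letters on either strand, with neighboring CCAAT and ATTGG in the Ube2c stretch sharing bases.
Mki67: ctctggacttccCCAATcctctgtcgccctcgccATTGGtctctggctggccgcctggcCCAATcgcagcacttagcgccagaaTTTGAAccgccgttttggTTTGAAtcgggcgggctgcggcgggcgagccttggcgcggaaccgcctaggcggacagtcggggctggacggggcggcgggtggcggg
Top2a: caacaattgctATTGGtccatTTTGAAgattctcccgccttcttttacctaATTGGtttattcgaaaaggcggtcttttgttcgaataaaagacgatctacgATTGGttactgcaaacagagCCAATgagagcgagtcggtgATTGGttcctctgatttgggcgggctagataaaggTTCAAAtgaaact
Ube2c: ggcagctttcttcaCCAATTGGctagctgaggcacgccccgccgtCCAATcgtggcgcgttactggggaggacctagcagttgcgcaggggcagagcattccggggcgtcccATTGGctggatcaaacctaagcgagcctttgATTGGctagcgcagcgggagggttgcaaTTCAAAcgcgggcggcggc
Cdc20: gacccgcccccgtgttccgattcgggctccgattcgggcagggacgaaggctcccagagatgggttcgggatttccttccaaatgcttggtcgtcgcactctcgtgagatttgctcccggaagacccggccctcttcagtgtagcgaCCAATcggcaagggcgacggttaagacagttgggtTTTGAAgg
Rrm1: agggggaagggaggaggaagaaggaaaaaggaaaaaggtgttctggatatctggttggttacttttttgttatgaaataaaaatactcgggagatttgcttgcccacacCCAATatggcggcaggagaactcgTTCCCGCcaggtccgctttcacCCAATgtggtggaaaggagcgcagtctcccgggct
They lie at chr7:135716390-135716579 (minus strand), chr11:99024200-99024389 (minus), chr2:164769729-164769918 (plus), chr4:118437354-118437543 (minus) and chr7:102441495-102441684 (plus) on GRCm38. The stretch of Ube2c overlaps an annotated first exon by 21 bases. TTTGAA or its reverse stands once in Ube2c, 29 bases before the start, and once in Cdc20, 18 bases before it, while Mki67 and Top2a hold it at 2 places each. In Rrm1, TTCCCGC stands 67 bases before the start, between CCAAT at 91 and 45 bases. Above the limit Rrm1, the other reductase subunit, was at 223 CPM, or 1.80-fold (1.74 to 1.87) of all cells of 500 to 5000 genes, and 0.974-fold (0.936 to 1.01) of those of 4000 to 5000.

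Lists of growth genes differed in how many of their members were higher. All 20 genes of ribosome biogenesis were above a ratio of 1 against all cells of 500 to 5000 genes (median 1.44), against those of 4000 to 5000 (1.17) and among S or G2/M cells (1.24), and none was 2-fold higher. Of all genes measured, 3392 of 7825, 3374 of 7627 and 3276 of 7671 were above 1 in these comparisons, in the same order. Ncl, nucleolin, was at 2020, 1624 and 1182 CPM above 5000, at 4000 to 5000 and at 500 to 5000 genes, and Npm1, nucleophosmin, at 2619, 2114 and 1641 CPM. All 17 nuclear genes of the respiratory chain were above 1 in the same comparisons, with medians of 1.33, 1.10 and 1.17, of which Cycs, cytochrome c, was highest at 1.94-fold of all cells below the limit. All 18 genes of nucleotide synthesis were above 1 against all cells (median 1.70), but 10 of 18 against cells of 4000 to 5000 genes (1.06). Of the 14 measured genes of glycolysis, 10 were above 1, led by Tpi1, triosephosphate isomerase, at 1.79-fold, and Ldha, lactate dehydrogenase A, was at 1.64-fold (1.61 to 1.68). Of the 11 measured genes of the Myc family and growth control, 7 were above 1 and 4 below, with a median of 1.07, and Mxd4, a Myc antagonist, was at 47.1 CPM above the limit and 127.6 below it. Cytoplasmic ribosomal protein genes had a median ratio of 0.991, with 36 of 78 above 1. The level of Malat1, a noncoding RNA kept in the nucleus (chr19:5795690-5802672), was 7584 CPM above the limit, 9069 in cells of 4000 to 5000 genes and 15306 in all cells below it, and its ratio was 0.621 within G2/M cells. Across the 552 cells, the CPM of Malat1 was lower in cells of higher UMI count, with Spearman's rho of -0.54, where both measures share the UMI total.

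**Figure D3:**
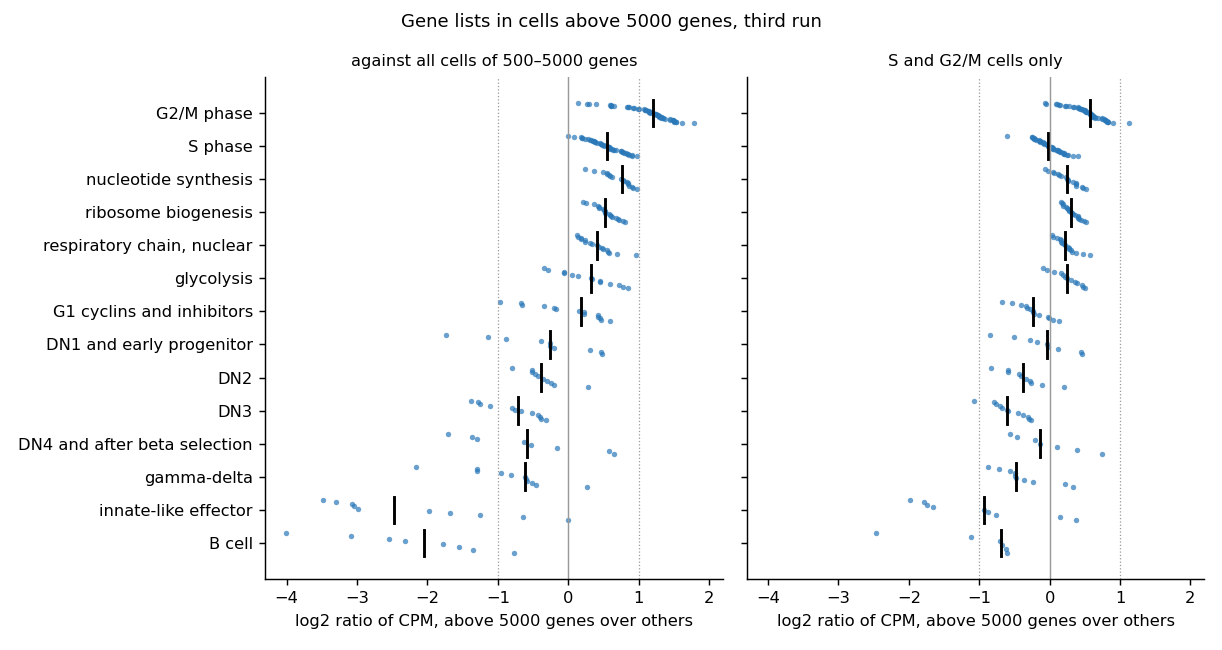
Log2 ratio of CPM (x axis) of cells above 5000 genes over cells of 500 to 5000 genes, for all cells (left) and for S and G2/M cells (right), with 1 point per measured gene, a black bar at the median of each list and dotted lines at 2-fold. Of the lists drawn, G2/M lies highest in both panels, with medians of 2.31 and 1.49 as ratios, and the innate-like effector and B cell lists lie lowest.

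Genes of each sorted stage were found above 5000 genes, and against all cells of 500 to 5000 genes the DN1, DN2, DN3, DN4 and γδ lists all had median ratios below 1. The DN1 and DN4 lists were at or above 1 in other comparisons, given with each list. At least 3 UMIs over 2 or more of the DN2 and DN3 genes were held by all 552 cells, but also by all 1351 cells of 4000 to 5000 genes and by 7433 of the 7511 below the limit. Il2ra (chr2:11642807-11693193) was at 194 CPM (188 to 201) above the limit, 255 (249 to 261) in cells of 4000 to 5000 genes and 278 (274 to 281) in all cells of 500 to 5000. Single cells above the limit held 0 to 1319 CPM with a median of 128, compared with a median of 116 below it. Thinned to 10000 UMIs per cell, 64.3% (60.2% to 68.3%) of the 552 had Il2ra, compared with 71.2% (68.7% to 73.6%) of the cells of 4000 to 5000 genes. Of the DN2 genes, 9 of 10 were below a ratio of 1 against all cells below the limit, with a median of 0.764 and Tcf7, a T lineage transcription factor induced by Notch, at 1.21-fold. Cpa3, a mast cell protease expressed at DN2, was at 109 CPM above the limit and 147 below it.

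All 12 measured DN3 genes were below 1, 4 were at least 2-fold lower, and the median was 0.613. Ptcra (chr17:46755663-46763712) was at 36.2 CPM (33.6 to 39.1) above the limit, 45.2 (42.7 to 47.7) in cells of 4000 to 5000 genes and 78.6 (76.6 to 80.6) in all cells below it. Rag1, a subunit of the recombinase, was at 39.8, 41.8 and 94.7 CPM, and Notch3, a receptor upregulated at DN3, at 14.0, 19.1 and 36.7 CPM. In S or G2/M cells alone the DN3 genes had a median of 0.661, and next to the limit 0.880. At 2000 UMIs, Ptcra was found in 5.43% of the 552 cells, 6.59% of those of 4000 to 5000 genes and 12.8% of those of 500 to 5000, and Rag1 in 6.70%, 6.37% and 14.1%. At 10000 UMIs, which 2967 of the 7511 cells below the limit had, Ptcra was found in 24.5% (20.9% to 28.3%), 22.3% (20.1% to 24.6%) and 22.7% (21.2% to 24.2%), and Rag1 in 22.5%, 20.1% and 21.6%, so that no order is read from the shares at this depth. Dntt, the terminal transferase that adds bases at rearranged junctions, was at 662 CPM above the limit, 902 in cells of 4000 to 5000 genes and 872 in all cells below it. It was found in 65.2% of the 552 cells, 71.7% of those of 4000 to 5000 genes and 56.3% of those of 500 to 5000 at 2000 UMIs, and in 91.8%, 89.0% and 85.7% at 10000.

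Among the measured genes of DN4 and of the time after β-selection, Lef1 had the highest ratio against all cells of 500 to 5000 genes. Cd8b1 and Cd8a, too low to count as measured, had larger ratios in that comparison. Lef1, a transcription factor related to Tcf7 (chr3:131110471-131224356), was at 215 CPM (209 to 222) above the limit, 127 (123 to 131) in cells of 4000 to 5000 genes and 138 (135 to 140) in all cells of 500 to 5000. The ratio was 1.98 (1.88 to 2.09) within G2/M cells and 1.30 (1.21 to 1.39) within S cells. At 10000 UMIs, 57.8% (53.5% to 61.9%) of the 552 cells had Lef1, compared with 39.3% (36.7% to 42.0%) of those of 4000 to 5000 genes. Within the cells above the limit it was at 211 CPM at 5001 to 5500 genes, 202 at 5501 to 6000 and 252 at 6001 to 7538. No cell gave more than 4.13% of its UMIs. Cd8b1, the CD8 β chain, was at 8.15 CPM (6.91 to 9.55) above the limit, 2.94 (2.34 to 3.66) at 4000 to 5000 genes and 3.51 below it, and at 10000 UMIs 26 of the 552 cells held it. Cd8a was at 2.57, 1.33 and 1.30 CPM, and Cd4 was near 0 in each. Trac (chr14:54220521-54224206) was at 28.7, 32.1 and 93.6 CPM. Of the 8 measured genes of this list, 2 were above 1 and 3 at least 2-fold lower, with a median of 0.670. Against cells of 4000 to 5000 genes, 5 of 7 were above 1, with a median of 1.046, and within S cells the median was 1.003, so that the direction of this list depended on the cells compared.

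The lowest ratios among genes with a mean of at least 50 CPM were those of Igha and Igkc, immunoglobulin constant segments, with 9.54 and 65.6 CPM above the limit and 254 and 1053 below it. Ccl5 followed, then H2-Aa and Cd74, of the MHC class II pathway, at 15.8 and 59.7 CPM compared with 99.1 and 350 below the limit. Cd7, Maf, Ms4a4b, Ltb, Id2, Slfn2 and Ifi27l2a came next, at ratios of 0.205 to 0.264. Of these genes Ltb encodes lymphotoxin β, at 69.7 and 280 CPM, and Id2 an inhibitor of E proteins, at 47.5 and 187. Next to the limit these levels were closer, with Igha at 9.33, Cd74 at 47.7 and Id2 at 66.9 CPM in cells of 4000 to 5000 genes.

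Of all 7825 genes measured, 4433 were below a ratio of 1, against which the lists of γδ cells and early progenitors are to be read. Of the 11 measured γδ genes, 10 were below 1, with a median of 0.656, and Trdc, the constant segment of TCRδ, was at 263 CPM above the limit, 318 at 4000 to 5000 genes and 400 below it. Id3, an inhibitor of E proteins induced by TCR signals, was at 66.7, 51.7 and 55.6 CPM. Of the 10 measured DN1 genes, 7 were below 1 in all cells, but 7 were above 1 within S cells, with a median of 1.21. Ly6a, encoding Sca-1, was at 41.3 CPM against 138. Cd34, a progenitor surface gene, was at 12.2 CPM above the limit and 8.72 below it, and Spi1, encoding PU.1, at 19.6 and 15.8. Genes of innate-like effector cells were at least 2-fold lower for 8 of 10, with a median of 0.191. Ccl5, a chemokine of cytotoxic cells, was at 13.3 and 112 CPM and Klrd1, encoding CD94, at 5.63 and 46.4, while Gzma, granzyme A, was at 525 and 527. In cells of 4000 to 5000 genes, Ccl5 was at 25.7 CPM and Klrd1 at 9.44. Cd79a was at 28.7, 15.6 and 98.3 CPM above 5000, at 4000 to 5000 and at 500 to 5000 genes.

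**Figure D4:**
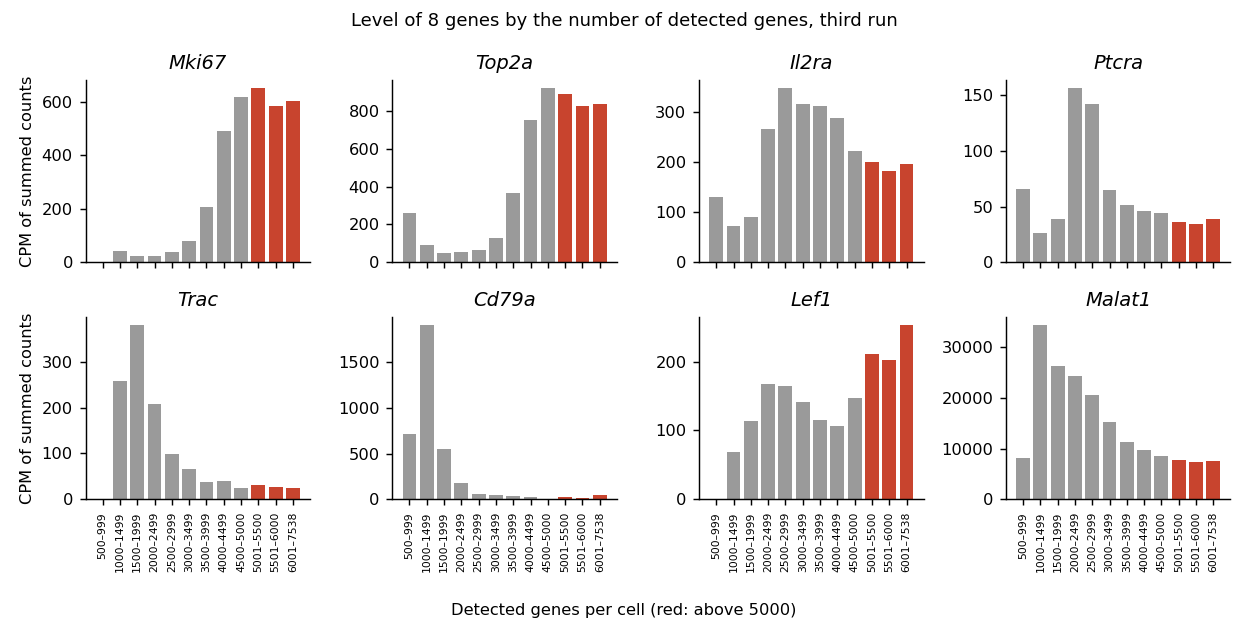
CPM of summed counts (y axes, each from 0) of 8 genes by the number of detected genes per cell (x axis) in the third run, with cells above 5000 genes in red. The first bin holds 7 cells and no intervals are drawn. Mki67 and Top2a change little across the limit, Lef1 is higher above it than just below it, and Ptcra, Trac and Malat1 are highest in smaller cells.

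Few cells held a pair of the exclusive markers at 2000 UMIs. At 2000 UMIs per cell, 6 of the 552 cells, or 1.09% (0.4% to 2.35%), held both Il2ra and Trac, compared with 0.831% (0.638% to 1.06%) of the cells of 500 to 5000 genes and 0.814% (0.407% to 1.45%) of those of 4000 to 5000. The product of the single shares was 1.82% above the limit and 5.07% and 2.1% in the others. Il2ra and Cd79a were together in 3 of the 552 cells, or 0.543% (0.112% to 1.58%), compared with 0.791% (0.602% to 1.02%) and 0.296% (0.0807% to 0.756%). The products for this pair were 0.802%, 1.91% and 0.589% in the same order. Trac and Cd79a were together in 0 of the 552, which allows up to 0.666%, and no cell held all 3 genes. These intervals overlapped, so that a difference in these shares was not detectable at 2000 UMIs. Among cells with Trac, 17.65% (6.76% to 34.5%) of 34 above the limit held Il2ra at this depth. The shares were 14.7% (7.56% to 24.7%) of 75 at 4000 to 5000 genes and 5.33% (4.11% to 6.78%) of 1163 at 500 to 5000. The last interval only just met that of the cells above the limit.

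More cells held both markers at greater depth. At 10000 UMIs, a depth chosen after the data were seen, 41 of the 552 cells, or 7.43% (5.38% to 9.94%), held Il2ra and Trac, compared with 4.52% (3.47% to 5.76%) of the 1351 cells of 4000 to 5000 genes and 4.85% (4.11% to 5.69%) of the 2967 cells of 500 to 5000 genes that had this depth. The products of the single shares were 10.4%, 8.59% and 11.6%. Of the cells with Trac, 46.1% (35.4% to 57.0%) of 89 above the limit held Il2ra, 37.4% (29.98% to 45.3%) of 163 at 4000 to 5000 genes and 29.0% (25.02% to 33.2%) of 497 at 500 to 5000. Il2ra and Cd79a were together in 4.53% (2.95% to 6.61%) above the limit, 2.89% (2.06% to 3.92%) at 4000 to 5000 genes and 2.93% (2.36% to 3.60%) at 500 to 5000. Their products were 3.85%, 2.85% and 3.33%. Trac and Cd79a were together in 1.27%, 0.296% and 0.775%, with products of 0.964%, 0.482% and 0.807%. Il2ra, Trac and Cd79a were together in 6 cells above the limit, or 1.09% (0.4% to 2.35%), and in 1 of 1351, or 0.0740% (0.00187% to 0.412%). At all UMIs, where the cells above the limit had a median of 32188.5 and those of 4000 to 5000 genes 20128, Il2ra and Trac were together in 115 cells each, or 20.8% and 8.51%, and in 5.05% of all cells below the limit.

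Cd79a separated a small set of cells (chr7:24897381-24902197). Of the 552 cells, 497 had none, 34 had 1 UMI, 1 had 2, none had 3 to 5, and 20 had 6 to 64. A limit of 3 UMIs was set after this gap was seen. It held 20 cells above 5000 genes, or 3.62% (2.23% to 5.54%), 16 of those with 4000 to 5000 genes, or 1.18% (0.678% to 1.92%), and 408 of all 7511, or 5.43% (4.93% to 5.97%), most of them small, with a median of 5073 UMIs. Cells with both Ptcra and Rag1, DN3 genes that a B cell should lack together, were examined for the same transcript. Of 155 such cells above the limit, with a median of 33600 UMIs, 17 had at least 1 UMI of Cd79a, or 11% (6.52% to 17.0%), beside 9.96% (7.60% to 12.8%) of all 552, in which these cells are included. Cells with a single UMI were not read as expressing the gene. Of the same 155, 8 had 3 or more, or 5.16% (2.25% to 9.92%), compared with 2 of 228 at 4000 to 5000 genes, or 0.877% (0.106% to 3.13%), and 12 of 1525 below the limit, or 0.787% (0.407% to 1.37%). The 228 and the 1525 cells had lower median depths, of 21005.5 and 7981 UMIs. At least 1 UMI of Cd79a was in 6.14% and 3.08% of them. Ptcra was called from at least 1 UMI, and some of the 20 cells with Cd79a held only 1. A place among the cells with Ptcra and Rag1 can thus rest on a single UMI.

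Most of the 20 cells carried transcripts of both lineages. Of these, 19 had Ebf1, a B cell transcription factor, compared with 10 of the other 532. In the same cells, 17 had both Cd3g, a chain of the TCR complex, and Lck, the proximal TCR kinase, 18 had Bcl11b, a T lineage commitment factor, 11 had Ptcra and 19 had Il2ra at 1 to 21 UMIs. Cd3g, where found, was at 13 to 82 UMIs. Some cells held 1 UMI of Ebf1, Ptcra or Il2ra, which was not read as expression. Of the 408 cells below the limit with 3 or more Cd79a UMIs, 20.6% (16.8% to 24.8%) had Il2ra and 39.0% (34.2% to 43.9%) Cd3g, at their lower depth. The 16 of these with 4000 to 5000 genes, nearer in depth, had Il2ra in 62.5% (35.4% to 84.8%) and Cd3g in 93.75% (69.8% to 99.8%). The other 532 cells above the limit had Il2ra in 82.5% and Cd3g in 92.7%. Of the 20, 1 cell with 64 UMIs of Cd79a and 106 of Igkc had no Cd3g, Lck or Bcl11b and 36 UMIs of Mki67, and another with 42 of Cd79a had no Il2ra, Cd3g or Bcl11b and 30 of Mki67. Phase calls put 19 of the 20 in S or G2/M. Leaving out the 20 cells, the share of S and G2/M was 97.4% and the ratio of Mki67 2.5.

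**Figure D5:**
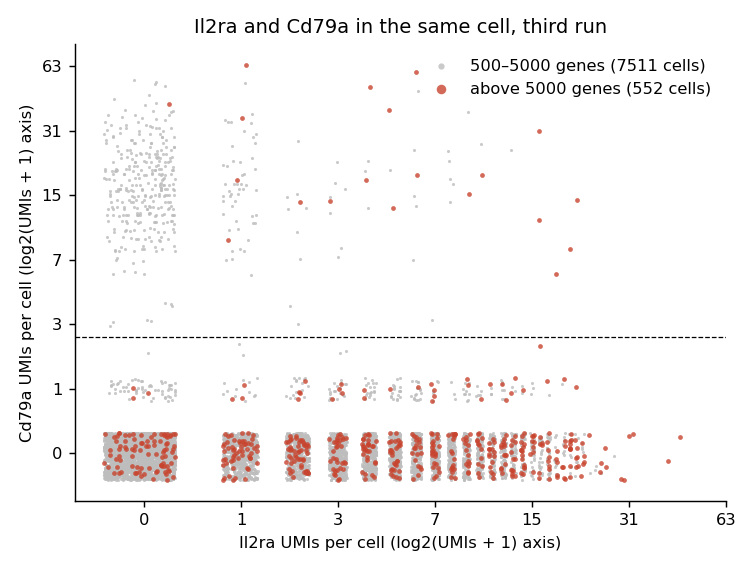
UMIs of Il2ra (x axis) and Cd79a (y axis) in each cell of the third run, on log2(UMIs + 1) axes with random jitter of up to 0.25 UMIs, red for the 552 cells above 5000 genes and grey for the 7511 below. Above the dashed line at 3 Cd79a UMIs, 19 of 20 red cells hold Il2ra and most grey cells lie at 0, at median depths of 30307.5 and 5073 UMIs. Of the 16 grey cells there with 4000 to 5000 genes, 10 hold Il2ra.

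The cells above the limit were divided further by Il2ra and Trac at 10000 UMIs, a division made after the data were seen. Beside the 20 cells with Cd79a, 303 of the 552 held Il2ra only, or 54.9% (50.6% to 59.1%), 37 held both, or 6.70% (4.76% to 9.12%), 48 held Trac only, or 8.70% (6.48% to 11.4%), and 144 held neither, or 26.1% (22.5% to 29.96%). In cells of 4000 to 5000 genes, the shares were 66.0%, 4.52%, 7.48% and 20.8%. Mki67 was at 624 CPM in cells with Il2ra only, 685 in cells with neither, 630 in cells with Trac only and 399 in cells with both. Cells with neither had the highest median depth, at 35168 UMIs, 76.4% in G2/M and none in G1. They also had Cd8b1 at 16.1 CPM, compared with 4.64 in cells with Il2ra only, Cd8a at 6.24 and 1.11, and Lef1 at 264 and 176 CPM. The same groups at 4000 to 5000 genes also differed, with Cd8b1 at 8.20 and 1.38, Cd8a at 2.62 and 0.719, and Lef1 at 238 and 82.4 CPM. Cells with Trac only had Maf, a factor of IL-17-producing γδ cells, at 77.0 CPM, compared with 12.2 with Il2ra only, Sox13 at 39.8 and 21.3, and Lef1 at 336 CPM. At 4000 to 5000 genes, Maf was at 160 and 10.0 CPM in these groups, Sox13 at 53.2 and 19.0, and Lef1 at 194 and 82.4.

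Cells with Il2ra only and cells with neither gene or Trac only differed in further genes, of which a few were chosen after their values were seen. The groups were called from the thinned counts of that division, while the levels are at all UMIs. At all UMIs, 99 of the 192 cells called without Il2ra held at least 1 UMI of it. Il2ra was at 37.7 CPM in the 192 cells and 295.8 in the 303 with Il2ra only. In the same order, Cd52, a surface glycoprotein of lymphocytes, was at 449 and 161 CPM and Id3 at 96.9 and 44.0. Ccr9, the homing receptor for the thymus and gut, was at 92.1 and 47.7 CPM, and Gzma at 772 and 391. The cells with Il2ra only had Cpa3 at 165 CPM compared with 29.3, Myl10, a myosin light chain, at 474 and 174, and Tcrg-C1 at 377 and 174. The groups of 4000 to 5000 genes also differed. Id3 was at 24.5 CPM there with Il2ra only, 88.1 with neither and 174 with Trac only. In the same order, Gzma was at 281, 805 and 633 CPM and Cpa3 at 197, 90.9 and 49.0.

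Scores of a doublet caller were higher above the limit. Scrublet, which compares each cell with sums of random pairs of cells, called 76 of the 552, or 13.8% (11% to 16.9%), 7.25% (5.93% to 8.77%) of cells of 4000 to 5000 genes and 2.72% (2.36% to 3.11%) of all cells below the limit. Of the 10% of cells with the highest scores, the cells above the limit had 185, or 33.5% of the 552 (29.6% to 37.6%). By groups, 18 of the 20 cells with Cd79a were in this upper 10%, 27 of the 37 with Il2ra and Trac, 26 of the 48 with Trac only, 93 of the 303 with Il2ra only and 21 of the 144 with neither. The scores were slightly lower at higher UMI counts among the 552, with Spearman's rho of -0.14. Without this upper 10%, S and G2/M made up 99.2% of the remaining cells above the limit, and Mki67 was 2.92-fold and Il2ra 0.612-fold of those below.

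The 15 cells above the limit called G1 differed from the rest. They had a median of 26710 UMIs, and 12 were in the upper 10% of Scrublet scores. Il2ra was at 416 CPM in these cells and Trac at 113, compared with 194 and 28.7 in all 552. The levels of the 15 cells are given without intervals. High Scrublet scores were not particular to the G1 cells above the limit. Of the 112 G1 cells of 4000 to 5000 genes, 60 were also in the upper 10%, or 53.6%. The shares of S and G2/M cells of 4000 to 5000 genes were 14.4% and 19.4%.

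Markers of other cell types differed in how many cells they came from. Erythroid genes had 222 CPM in sum above the limit, 53.4 below it and 60.5 at 4000 to 5000 genes. A single cell gave 1196 of 1215 UMIs of Hbb-bs, 568 of 589 of Hba-a1 and 374 of 387 of Hba-a2. It also had 20 UMIs of Cd3g and 9 of Lck, with a Scrublet score of 0.215. Car1, an erythroid carbonic anhydrase, was at 0 in all 552. Hbb-bt was at 97.8 CPM above the limit and 41.9 below it, and was found in 77 cells, none with more than 13.4% of its UMIs. Hbb-bs had 19 UMIs outside the cell that held most of them. The source of Hbb-bt was not tested. All UMIs of Col1a2 and Col3a1, collagens of stromal cells, came from 1 cell, with 32 and 79, which also had 29 UMIs of Cd3g, while Krt5, Krt8, Psmb11 and Foxn1 of thymic epithelium were at 0. Of 12 myeloid or dendritic genes, 11 had UMIs, with 297 CPM in sum against 366 below the limit, led by Cst3 at 153, and S100a9 was at 0. The 12 B cell genes summed to 391 CPM above the limit, 314 at 4000 to 5000 genes and 2013 below it, led above the limit by Ighm at 171. The 12 innate-like genes summed to 742, 737 and 1285 CPM, led by Gzma, and the 8 plasmacytoid dendritic genes to 836, 989 and 1395, led by Ly6d, which T lineage precursors also express. By a rule of at least 3 UMIs over 2 genes, B cell genes, immunoglobulin transcripts included, were present in 77.0% of the 552 cells, 55.1% of those of 4000 to 5000 genes and 35.9% of all below the limit, whereas 3 or more Cd79a UMIs were in 3.62% of the 552. By the same rule, myeloid or dendritic genes were present in 55.8% of the 552, 48.3% of the cells of 4000 to 5000 genes and 31.9% of all below the limit, innate-like genes in 80.1%, 72.5% and 59.6%, stromal or epithelial genes in 27.9%, 17.2% and 9.28%, and erythroid genes in 4.53%, 2.07% and 0.759%. These shares were at all UMIs and so at unlike depths. The part of doublets, depth and free RNA in these levels was not tested. Xist was found in all 552 cells and no UMI of Ddx3y, Eif2s3y, Kdm5d or Uty in the run, so that cells of unlike sex could not be sought.

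In the other runs, cells above 5000 genes were rare. The first run had 3, or 0.0543% (0.0112% to 0.159%) of its cells, with 30708 to 44174 UMIs, and the second had 2, or 0.0225% (0.00273% to 0.0813%), with 27364 and 32449. Their summed levels of Mki67 were 96.9 CPM (48.4 to 173) and 100 (36.8 to 218), and of Top2a 476 (357 to 621) and 502 (338 to 716), compared with 116 and 349 CPM in the first-run cells of 500 to 5000 genes and 60.8 and 221 in those of the second. The sort, the depth and the number of genes listed (28692, compared with 32285 in the third run) all differ between the runs and cannot be told apart.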

How the data were processed

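For each run, the authors deposited UMI counts per gene and cell, without normalization. Reads had been aligned to mm10 and counted with Cell Ranger, version 4.0.0 by the header of the third run. Kit V2 or V3.1 had been used, and the kit of each run is not given in the sources used here. Detected genes, mitochondrial shares and UMIs were computed from these counts. The matrix held cells called by Cell Ranger, with no gene limit and no removal of doublets.

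Cells were thinned without replacement to 2000 UMIs, leaving out 48 cells below the limit of 5000 genes, normalized to 10000, and scored for phase with scanpy 1.11.5. The higher of the S and G2/M scores lay within 0.05 of the cut between G1 and cycling in 18 of the 552 cells, or 3.26%. Nearness to the cut between S and G2/M was not counted. The share was 6.66% in cells of 4000 to 5000 genes and 29.7% in those of 500 to 5000. Doublets were scored with Scrublet in scanpy and not removed. Levels were CPM of summed counts, and ratios had exact conditional binomial intervals. The named genes were those of the lists and the 12 largest ratios in each direction with a mean of at least 50 CPM, leaving out mitochondrial, Gm and Rik genes. Some genes of each list and those of the S or G2/M comparison are given by counts. Genes outside this rule are said to be so. Some listed genes are not reported here by name. Of the listed genes, Scart2 was not found in the files. The members and lists were chosen with earlier results of these data known. Ratios, shares and thinning were tested on simulated data. Gene positions came from GENCODE vM21 and promoters from RefSeq GRCm38.p6.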

Additional observations from a re-analysis of the deposited data

How the results depend on the processing

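Under 77 alternatives, no ratio of Mki67, Top2a or Il2ra crossed 1, 32 values stayed within the counting interval of the main value (numbers of genes or cells, within 1.5 times of it), and 45 moved. Limits of 4500 and 5500 genes gave 1147 and 212 cells, Mki67 ratios of 3.66 and 2.37, Top2a ratios of 3.24 and 2.14, and removed 29.3% and 5.51% of cycling cells, with Il2ra at 0.675 for 5500. Without the upper 10% of Scrublet scores, 99.2% were in S or G2/M, with ratios of 2.92 for Mki67, 2.55 for Top2a and 0.612 for Il2ra. By 2 UMIs of Mki67 and Top2a, 65.0% were cycling. Against cells of 4000 to 5000 genes, these ratios were 1.12, 1.03 and 0.760, with 3 genes at least 2-fold higher and 2 lower. By means of each cell's CPM they were 4.15, 3.58 and 0.759, with 311 genes higher and 515 lower. With a mean of at least 50 CPM 69 genes were higher and 71 lower, with at least 2 CPM 674 were lower, without a filter 1465 were higher and 4987 lower, and at 1.5-fold 467 were higher and 919 lower. Thinned to 1000 and 5000 UMIs, the share of cycling cells removed was 11.8% and 16.9%. Il2ra and Trac were together in 3.44% of cells at 5000 UMIs, 7.43% at 10000 and 20.8% at all UMIs, and Il2ra and Cd79a in 2.17%, 4.53% and 9.24%, and with at least 2 UMIs per gene each of these pairs was in 0 cells at 2000 UMIs, but Il2ra and Trac were in 2 cells in a second random draw, 1.81% of cells at 10000 and 9.42% at all UMIs. Trac and Cd79a were together in 1.27% at 10000 and 3.80% at all UMIs, and all 3 genes in 1.09% and 3.44%. The depth of 10000 UMIs and the removal of cells with 3 or more Cd79a UMIs, which moved no value, were chosen after seeing the data. The causes were not tested. No paired analysis was possible because each run is 1 library and the labels carry no replicate numbers. With 1 library, intervals hold no spread between animals. At 2000 UMIs, Trac was found in 34 of the 158 cells above the limit that held it at all UMIs, and Cd79a in 15 of 55.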
